A study of Mus musculus with 12 samples.

Results

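The MHC class II presentation genes are the genes whose products load peptide onto MHC class II molecules and display it to CD4+ T cells, together with the gene that switches the set on. They were taken by symbol from a deposited expression table of bone marrow. All 10 listed genes, Cd74, H2-Aa, H2-Ab1, H2-Eb1, H2-DMa, H2-DMb1, H2-DMb2, H2-Oa, H2-Ob and Ciita, were found among its 24421 entries. All 10 also passed the filter on low values, which left 11767 genes for testing, so no member is missing from any count below.

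The 12 samples were total RNA of bone marrow from C57BL/6 mice, 3 in each of 4 groups. Aged-TBI are aged mice with traumatic brain injury, Aged-CON aged controls, Young-TBI young mice with the same injury and Young-CON young controls. Marrow was taken 3 days after the injury. The labels give neither ages in weeks or months nor the injury model, sex or what was done to controls, and they leave unsaid whether each sample is a separate animal. The p-values below therefore weigh differences against sample-to-sample spread, part or all of which may be technical. Levels are FPKM, the fragments of a gene divided by its length in kilobases and by the mapped fragments of the sample, which allows levels of different genes to be set side by side. The FPKM values came in steps from which the whole fragments behind them could be recovered for 99.97% of tested genes, to within 0.05 of a whole number. The recovered totals, in units of 1e6 fragments, ran between 12.32 and 15.9 per sample. A member rested on between 37 fragments (H2-Oa in its lowest sample) and 9416 fragments (Cd74 in its highest).

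MHC class II molecules are heterodimers of an alpha and a beta chain. In C57BL/6 mice the surface molecule is I-A, made from H2-Aa and H2-Ab1. The beta chain H2-Eb1 is also transcribed, but this strain carries a defective gene for its alpha partner. Cd74, the invariant chain, fills the peptide groove of new dimers and guides them to the endosomes, where H2-DM exchanges the last fragment of Cd74 for peptide. H2-O, a dimer of H2-Oa and H2-Ob, binds H2-DM and restrains it, and is best known from B cells. Ciita is the coactivator without which most of these genes are not transcribed. It does not bind DNA itself but docks on RFX, CREB and NF-Y proteins bound to conserved promoter elements called the X and Y boxes. In marrow, B cells, dendritic cells and a share of the macrophages and monocytes are known to carry class II.

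By GENCODE M21 on GRCm38, 8 of the 10 genes lie on chromosome 17, between H2-Oa, which starts at 34092340, and H2-Eb1, which ends at 34316674. H2-Aa spans chr17:34282744-34287823 on the minus strand, and H2-Ab1 spans chr17:34257689-34269419 on the plus strand. Ciita lies on chromosome 16 (10480059 to 10528418). RefSeq promoter windows on GRCm38.p6 were at hand for 7 of the 10 genes. Of these, 6 held the letters CNNNNAAC followed by TGATTGG, with a gap of 23 to 26 bases between them. CNNNNAAC matches part of an X box, and TGATTGG matches a Y box. The 130 bases before the RefSeq start of each of these 6 genes are shown. The X and Y boxes are where the factors that dock Ciita are known to bind. RefSeq and GENCODE starts differ for some of the genes. GENCODE starts H2-Oa at 34092340, H2-Ob at 34238903, H2-DMb1 at 34153072 and H2-DMb2 at 34143307. Part or all of the windows of these genes thus lies inside the GENCODE gene. The bases are written 5' to 3' on the gene's own strand, with the 2 sets of letters in capitals.

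H2-Aa, chr17:34287824-34287953, minus strand: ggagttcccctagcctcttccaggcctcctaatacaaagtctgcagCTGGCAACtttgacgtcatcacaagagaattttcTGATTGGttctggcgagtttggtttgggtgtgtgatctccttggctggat
H2-Eb1, chr17:34305737-34305866, plus strand: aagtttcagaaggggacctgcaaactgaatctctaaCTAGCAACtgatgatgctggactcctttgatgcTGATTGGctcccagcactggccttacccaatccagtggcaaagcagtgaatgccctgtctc
H2-DMb1, chr17:34153061-34153190, plus strand: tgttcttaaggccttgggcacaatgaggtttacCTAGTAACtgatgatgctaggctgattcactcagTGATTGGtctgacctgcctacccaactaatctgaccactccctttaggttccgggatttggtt
H2-DMb2, chr17:34145119-34145248, plus strand: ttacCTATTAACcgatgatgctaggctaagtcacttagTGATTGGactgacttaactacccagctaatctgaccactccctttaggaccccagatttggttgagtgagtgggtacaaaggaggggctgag
H2-Oa, chr17:34092249-34092378, plus strand: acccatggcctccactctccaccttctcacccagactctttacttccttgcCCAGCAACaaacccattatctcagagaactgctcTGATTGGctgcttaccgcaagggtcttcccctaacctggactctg
H2-Ob, chr17:34238775-34238904, plus strand: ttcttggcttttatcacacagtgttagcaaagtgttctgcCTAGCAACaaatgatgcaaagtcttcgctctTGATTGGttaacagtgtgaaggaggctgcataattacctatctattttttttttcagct

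The letters TGATTGG, searched on both strands in the 250 bases before each start, were found in 7.23% of 32851 promoter windows of the genome, and CNNNNAAC in 75.6%. Both together, in this order and 10 to 30 bases apart on either strand, were found in 136 windows (0.414%). The letters and the spacing were chosen after these promoters had been read, so the count of 6 in 7 is a description. H2-DMa, with 2 start sites in the table, held no such pair in these windows. H2-DMb1 and H2-DMb2, which differ in the results below, both carried the pair.

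Cd74, on chromosome 18 (60803848 to 60812652), was the most abundant member in every sample. Its levels were 247, 308 and 265 FPKM in Aged-TBI, 425, 344 and 387 FPKM in Aged-CON, 178, 264 and 155 FPKM in Young-TBI, and 367, 522 and 488 FPKM in Young-CON. At both ages every injured sample was below every control of the same age, and the controls of the 2 ages overlapped. The microRNA gene Mir5107 lies within Cd74 on the same strand and has an entry of its own at 0.923 to 10.4 FPKM, so fragments may have been divided between them.

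The alpha and beta chains followed Cd74. H2-Aa was at 116, 149.9 and 119 FPKM in Aged-TBI, 212, 184 and 203.5 FPKM in Aged-CON, 78.6, 121 and 72.4 FPKM in Young-TBI, and 148, 230.05 and 207 FPKM in Young-CON. H2-Ab1 was at 118, 130.2 and 117 FPKM in Aged-TBI, 193, 158 and 179 FPKM in Aged-CON, 82.0, 123 and 74.3 FPKM in Young-TBI, and 148, 216 and 199.7 FPKM in Young-CON. The 2 chains of I-A thus stood close to each other: the difference of H2-Aa from H2-Ab1 on the log2 scale lay between -0.06 and 0.23 in the 12 samples. H2-Eb1 was at 66.1, 86.5 and 73.7 FPKM in Aged-TBI, 113, 102 and 109.7 FPKM in Aged-CON, 46.3, 74.8 and 41.3 FPKM in Young-TBI, and 86.1, 142 and 122 FPKM in Young-CON. In all 3 genes the injured and control samples of the same age did not overlap, and Young-TBI 2 was the highest Young-TBI sample.

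The exchange factor H2-DM has 1 alpha gene and 2 beta genes in the mouse, and they differed in pattern. H2-DMa had the smallest ratio of highest to lowest sample among the 10 members, with 26.7, 28.8 and 25.7 FPKM in Aged-TBI, 36.7, 33.0 and 31.4 FPKM in Aged-CON, 32.1, 33.7 and 30.5 FPKM in Young-TBI, and 32.2, 40.0 and 37.8 FPKM in Young-CON. H2-DMb1 was at 21.1, 21.7 and 18.3 FPKM in Aged-TBI, 27.0, 29.2 and 29.2 FPKM in Aged-CON, 21.2, 21.3 and 21.7 FPKM in Young-TBI, and 19.8, 32.2 and 26.5 FPKM in Young-CON. For both, the young injured and control samples overlapped and the aged ones did not. H2-DMa was lower in all Aged-TBI samples than in the other 9. H2-DMb2 was at 27.6, 25.9 and 24.3 FPKM in Aged-TBI, 40.0, 32.1 and 35.0 FPKM in Aged-CON, 15.3, 21.3 and 12.2 FPKM in Young-TBI, and 38.6, 51.5 and 53.0 FPKM in Young-CON, with no overlap between injured and control samples at either age. The 2 beta genes share part of their sequence: 369 stretches of 50 bases, 22.7% of those in H2-DMb1 transcripts and 21.2% of those in H2-DMb2 transcripts, occur in both. How the authors assigned such fragments is not given in the sources used here, so the split between H2-DMb1 and H2-DMb2 is uncertain.

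The restraining dimer was lower in abundance. H2-Oa was at 6.29, 4.70 and 4.41 FPKM in Aged-TBI, 6.27, 5.45 and 7.55 FPKM in Aged-CON, 3.52, 4.33 and 2.52 FPKM in Young-TBI, and 8.63, 8.59 and 9.38 FPKM in Young-CON. H2-Ob was at 9.47, 11.4 and 10.6 FPKM in Aged-TBI, 14.5, 10.9 and 14.2 FPKM in Aged-CON, 9.08, 15.5 and 8.84 FPKM in Young-TBI, and 22.4, 30.3 and 34.3 FPKM in Young-CON. For both genes all 3 young controls were above the other 9 samples, and the aged injured and aged control samples overlapped.

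Ciita, the coactivator, was at 3.48, 4.12 and 3.64 FPKM in Aged-TBI, 5.14, 4.23 and 5.43 FPKM in Aged-CON, 2.55, 3.34 and 1.65 FPKM in Young-TBI, and 4.76, 7.12 and 6.92 FPKM in Young-CON. The order of its groups was that of Cd74: Young-TBI lowest, then Aged-TBI, Aged-CON and Young-CON, with the 2 control groups overlapping. On the scale of log2 FPKM with nothing added, Ciita stood below the mean of H2-Aa, H2-Ab1 and H2-Eb1, by -4.82 ± 0.03 in Aged-TBI, -4.99 ± 0.11 in Aged-CON, -4.95 ± 0.24 in Young-TBI and -4.69 ± 0.06 in Young-CON (SD, n = 3 each). Young-TBI spanned -5.20 to -4.71 and overlapped the other 3 groups. Dexi, a gene on the opposite strand that overlaps Ciita, was at 4.49 to 7.18 FPKM, and whether counting used strand is not given in the sources used here.

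**Figure D1:**
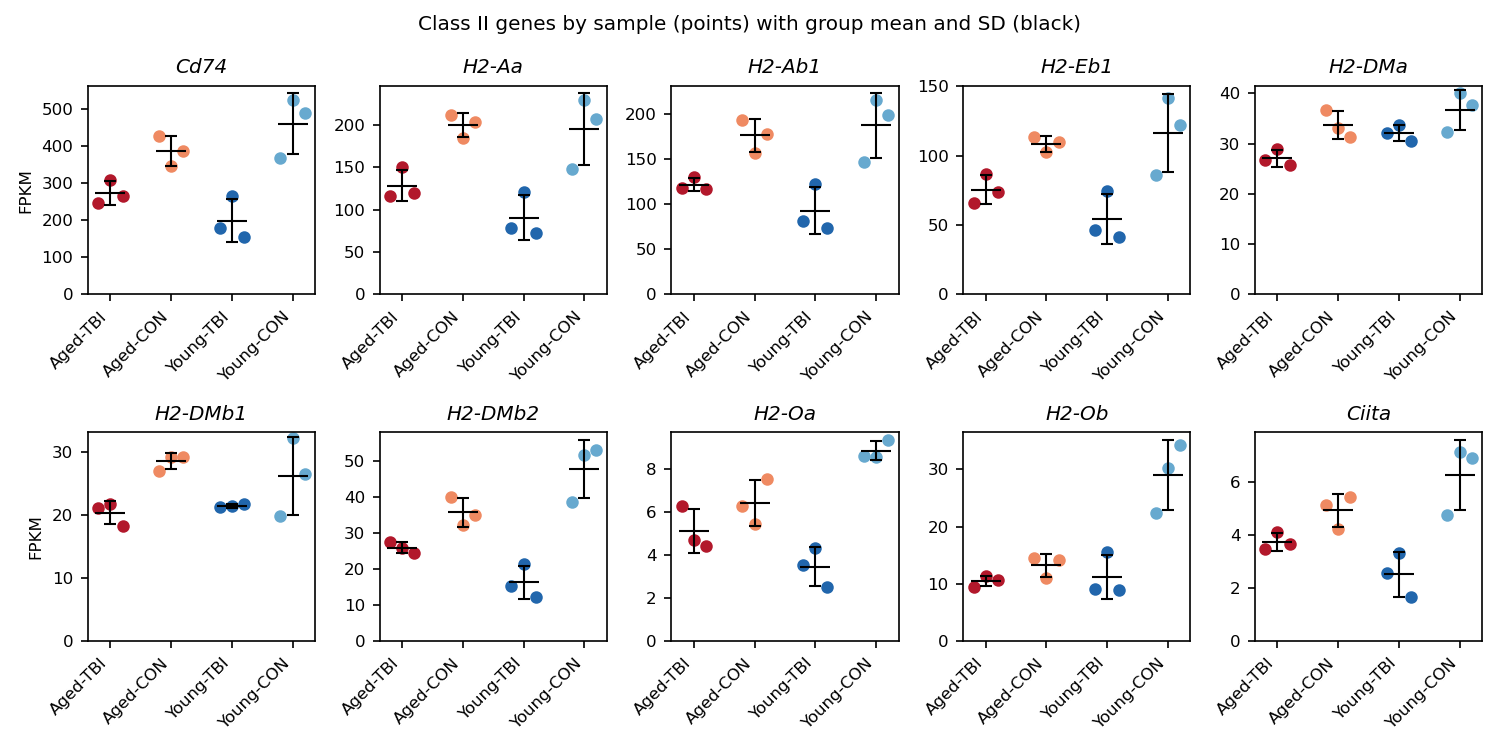
FPKM of each of the 10 class II genes in every sample, 1 panel per gene, with the 4 groups on the horizontal axis; points are samples and black marks the group mean and SD (n = 3). By group mean, Young-CON is highest and Young-TBI lowest for Cd74, H2-Ab1, H2-Eb1, H2-DMb2, H2-Oa and Ciita, whereas H2-DMa spans 25.7 to 40.0 FPKM over all samples and is lowest in Aged-TBI.

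The first comparison asked how brain injury altered marrow RNA in young mice (Young-TBI against Young-CON). Class II transcripts fell across the invariant chain, the alpha and beta chains, H2-DMb2, both H2-O chains and Ciita. Cd74 averaged 199 ± 57.5 FPKM in Young-TBI and 459 ± 81.5 FPKM in Young-CON, and H2-DMb2 averaged 16.3 ± 4.64 FPKM in Young-TBI and 47.7 ± 7.93 FPKM in Young-CON (SD, n = 3 each). H2-DMa and H2-DMb1 did not pass the test. In bulk RNA, fewer cells that express these genes and less RNA per cell cannot be told apart.

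Tests were made with limma on log2(FPKM + 1), with p-values adjusted over all 11767 tested genes by the Benjamini-Hochberg method, and a gene was called at an adjusted p under 0.05. Because of the added 1, a log2 change understates that of low genes such as Ciita and H2-Oa. In the young comparison 8 of the 10 genes were called lower, against 3.15% of all tested genes. The same 8 had all injured samples below all controls, against 15.0% of all tested genes. The median change of the 10 genes was -1.11 on the log2 scale, beside -0.02 for all tested genes. H2-DMb2 fell by 1.52 (SE 0.17, adjusted p = 0.00256) and H2-Ob fell by 1.33 (SE 0.20, adjusted p = 0.00538). Cd74 fell by 1.23 (adjusted p = 0.00538), H2-Oa by 1.17 (adjusted p = 0.004) and Ciita by 1.06 (adjusted p = 0.00798). The alpha and beta chains moved by similar amounts: H2-Aa had a log2 change of -1.11 (adjusted p = 0.0099), H2-Ab1 of -1.02 (adjusted p = 0.00929) and H2-Eb1 of -1.11 (adjusted p = 0.014). H2-DMa changed by -0.18 (95% interval -0.38 to 0.01, adjusted p = 0.28) and H2-DMb1 by -0.25 (95% interval -0.54 to 0.04, adjusted p = 0.325). The intervals of these 2 genes do not reach the changes of the 8 called ones. The calls of H2-Aa and H2-Eb1 were lost without Young-CON 3 (adjusted p = 0.0532 and 0.0668), without Young-TBI 1 (0.0513 and 0.0651) and without Young-TBI 3 (0.0524 and 0.0664), and that of H2-Eb1 also without Young-CON 2 (0.0522). H2-DMb1 was called lower without Young-CON 1 (log2 change -0.43, adjusted p = 0.0309).

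The second comparison asked the same in aged mice (Aged-TBI against Aged-CON). All 10 genes had lower means in injured mice, and none was called by limma or by limma-voom on the recovered fragments. The log2 changes were closer to 0 than in young mice for 8 genes and farther from 0 for H2-DMa and H2-DMb1. Cd74 averaged 273 ± 31.5 FPKM in Aged-TBI and 385 ± 40.4 FPKM in Aged-CON, and H2-Aa averaged 128 ± 18.6 FPKM in Aged-TBI and 200.05 ± 14.1 FPKM in Aged-CON (SD, n = 3 each). Few genes passed in this comparison at all, 0.323% of those tested.

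By limma the log2 changes in aged mice ran from -0.64 for H2-Aa (adjusted p = 0.118) to -0.28 for H2-Oa (adjusted p = 0.305), with a median of -0.46 beside -0.02 for all tested genes. Cd74 changed by -0.49 (95% interval -0.90 to -0.09, adjusted p = 0.15) and Ciita by -0.32 (95% interval -0.71 to 0.07, adjusted p = 0.291). At an unadjusted p under 0.05, 7 of the 10 genes were lower, against 13.1% of all tested genes, and in 8 the injured samples lay below all controls, against 13.0%. H2-DMa and H2-DMb1, which were not called in young mice, changed by -0.31 (adjusted p = 0.113) and -0.47 (adjusted p = 0.11). The erythroid marker list moved with this comparison in the other direction: its 9 measured genes summed to 3625 to 3856 FPKM in Aged-TBI and 1662 to 3204 FPKM in Aged-CON, and 0 members were called with the erythroid level as a covariate, when 0.0765% of all tested genes were called lower. With that covariate the change of H2-DMb1 was -0.20 (adjusted p = 0.896), and the other 9 members lay between -0.59 and -0.31. Aged-CON 1 had the highest erythroid level of the aged controls. Without it 1 member was called lower, H2-DMb1 (log2 change -0.51, adjusted p = 0.0309), when 12.9% of all tested genes were. With weights estimated per sample 4 members were called lower, H2-Aa, H2-Ab1, H2-DMa and H2-DMb1, when 14.7% of all tested genes were.

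**Figure D2:**
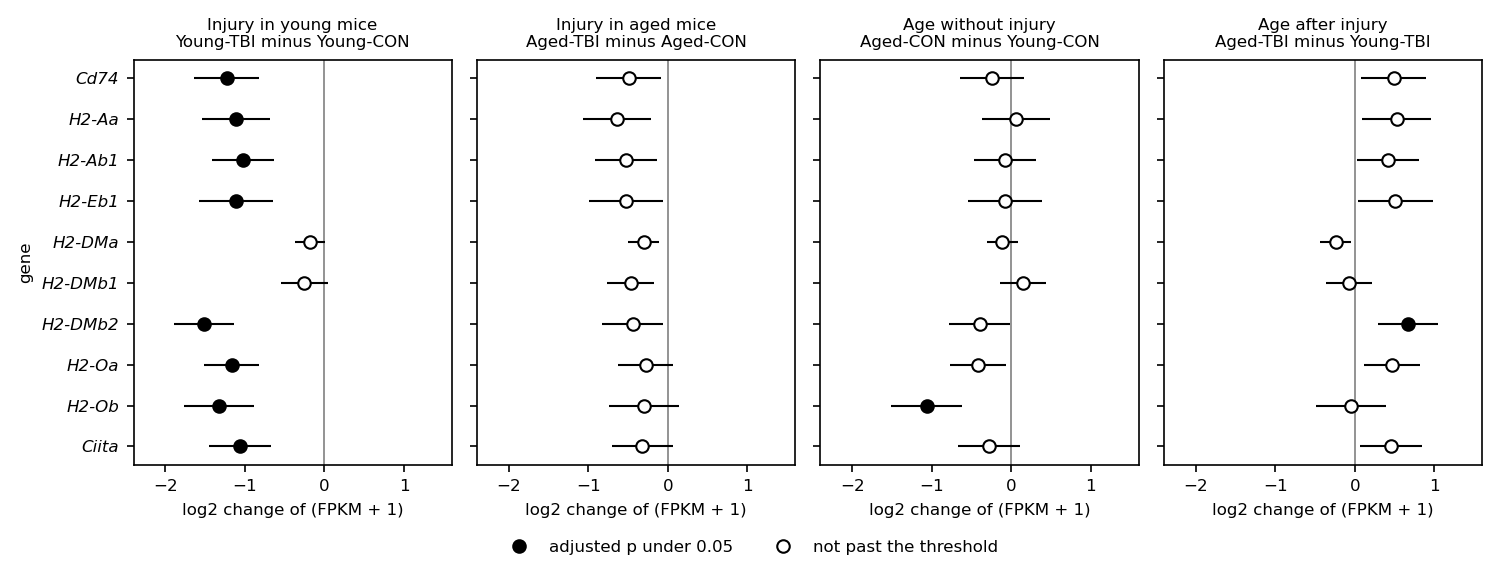
Log2 change of each class II gene in 4 comparisons, 1 panel each, with 95% intervals from limma; filled points have an adjusted p under 0.05. In young injured mice 8 genes are filled and to the left of 0, in aged injured mice all 10 lie to the left of 0 with none filled, H2-Ob is filled in the comparison of controls and H2-DMb2 in that of injured mice.

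The difference between the 2 injury effects was tested as an interaction, the aged effect minus the young effect. No member was called by limma, with 0.195% of all tested genes called, and none by limma-voom on the recovered fragments. At an unadjusted p under 0.05 the value was positive, that is, the fall was smaller in aged mice, for 5 members, against 9.57% of all tested genes. These were H2-DMb2 (1.07, adjusted p = 0.082), H2-Ob (1.02, adjusted p = 0.114), H2-Oa (0.89, adjusted p = 0.0956), Ciita (0.74, adjusted p = 0.16) and Cd74 (0.73, adjusted p = 0.175). The alpha and beta chains had values of 0.47 for H2-Aa, 0.50 for H2-Ab1 and 0.59 for H2-Eb1, and H2-DMa and H2-DMb1 had -0.12 and -0.22. Without Aged-CON 1 the interaction was called for H2-DMb2 (adjusted p = 0.0184), H2-Oa (0.0348) and H2-Ob (0.0353), when 9.12% of all tested genes were called positive. Without Young-TBI 2 it was called for H2-DMb2 (0.0279) and H2-Ob (0.0379), when 0.333% of all tested genes were called positive. Weights per sample gave 5 calls, all positive, against 13.3% of all tested genes called positive.

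Age without injury was compared between Aged-CON and Young-CON. H2-Ob, the beta chain of H2-O, was lower in aged marrow, averaging 13.2 ± 1.99 FPKM in Aged-CON and 29.0 ± 6.07 FPKM in Young-CON (SD, n = 3 each). The other 9 genes were not called. H2-Aa averaged 200.05 FPKM in Aged-CON and 195 FPKM in Young-CON, and H2-Ab1 averaged 177 FPKM in Aged-CON and 188 FPKM in Young-CON. This comparison shares its samples with both injury comparisons, as Aged-CON and Young-CON are their controls.

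H2-Ob fell by 1.07 on the log2 scale (SE 0.20, limma adjusted p = 0.00956), the 1 call among 10 members against 4.19% of all tested genes called lower. Its call was lost without Young-CON 3 (log2 change -0.94, adjusted p = 0.057). Its partner H2-Oa changed by -0.42 (95% interval -0.77 to -0.07, adjusted p = 0.179) and H2-DMb2 by -0.40 (95% interval -0.78 to -0.02, adjusted p = 0.238). Cd74 changed by -0.24 (95% interval -0.65 to 0.17), H2-Eb1 by -0.08 (95% interval -0.54 to 0.39) and H2-Aa by 0.06 (95% interval -0.37 to 0.49). The 95% interval of H2-Ab1 ran from -0.46 to 0.31, so changes within that range were not excluded here. The median over the 10 genes was -0.18, beside -0.05 for all tested genes.

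Age after injury was compared between Aged-TBI and Young-TBI, which are also the injured groups of the 2 injury comparisons. H2-DMb2 was higher in aged injured mice, with 25.9 ± 1.64 FPKM in Aged-TBI and 16.3 ± 4.64 FPKM in Young-TBI (SD, n = 3 each). It rose by 0.67 (SE 0.17, limma adjusted p = 0.0337), the 1 call among the members against 2.97% of all tested genes called higher. H2-Aa changed by 0.53 (adjusted p = 0.106), H2-Eb1 by 0.51 (adjusted p = 0.141), Cd74 by 0.49 (adjusted p = 0.112), H2-Oa by 0.47 (adjusted p = 0.0817) and Ciita by 0.46 (adjusted p = 0.116). H2-Ob, at -0.04, and H2-DMb1, at -0.07, were near 0, and H2-DMa changed by -0.24 (adjusted p = 0.103). The median was 0.47, beside -0.05 for all tested genes. The call of H2-DMb2 was lost without Young-TBI 1 (adjusted p = 0.0892) or Young-TBI 3 (0.133) and without Aged-TBI 1, 2 or 3 (0.0997, 0.0891 and 0.0735). Without Young-TBI 2, the Young-TBI sample with the highest class II levels, 6 members were called higher, against 1.82% of all tested genes called higher. With the erythroid level as a covariate no member was called, and H2-DMb2 had a change of 0.58 (adjusted p = 0.219). The erythroid list summed to 3625 to 3856 FPKM in Aged-TBI and 1591 to 2274 FPKM in Young-TBI.

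The balance of H2-O to H2-DM was taken as the mean log2(FPKM + 1) of H2-Oa and H2-Ob minus that of H2-DMa, H2-DMb1 and H2-DMb2. Its values were -1.57, -1.65 and -1.57 in the Aged-TBI samples, -1.72, -1.89 and -1.52 in Aged-CON, -1.76, -1.46 and -1.84 in Young-TBI, and -1.01, -1.26 and -1.01 in Young-CON. The 3 young controls had the 3 highest values, and the other 3 groups overlapped. The difference was -0.60 between Young-TBI and Young-CON and -0.62 between Aged-CON and Young-CON, each with p = 0.1 in a two-sided exact permutation test, the smallest p that 3 samples against 3 allow (p = 0.2 after Benjamini-Hochberg adjustment over the 4 comparisons). It was 0.12 between Aged-TBI and Aged-CON and 0.09 between Aged-TBI and Young-TBI (exact permutation p = 0.4 for each). Without H2-DMb2 the difference between Young-TBI and Young-CON was -1.03 and that between Aged-TBI and Young-TBI was 0.37.

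The 2 beta genes of H2-DM also shifted against each other. The log2 level of H2-DMb2 minus that of H2-DMb1 stood at 0.37, 0.24 and 0.39 in the Aged-TBI samples, 0.55, 0.13 and 0.25 in Aged-CON, -0.44, -0.0017 and -0.79 in Young-TBI, and 0.93, 0.66 and 0.98 in Young-CON. H2-DMb2 was thus above H2-DMb1 in all samples of 3 groups and at or below it in Young-TBI. These values were chosen after the members had been seen and were not tested.

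**Figure D3:**
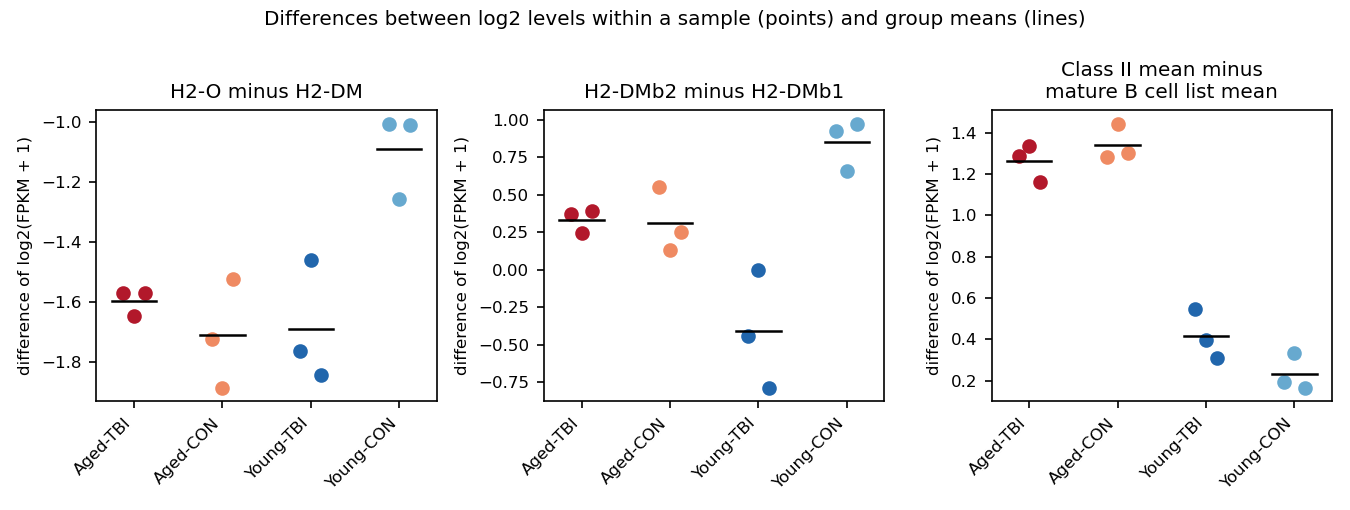
Differences between log2(FPKM + 1) levels within a sample (points) with group means (lines) for H2-O minus H2-DM, H2-DMb2 minus H2-DMb1, and the mean of the 10 class II genes minus the mean of 12 mature B cell genes. Young-CON stands highest in the first 2 panels, and both aged groups stand above both young groups in the third.

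Across the 12 samples Cd74, H2-Aa, H2-Ab1, H2-Eb1, H2-DMb2 and Ciita kept close to each other. Pearson's r of their log2 levels was 0.990 for Cd74 and H2-Ab1, 0.983 for Cd74 and Ciita, and 0.936 for H2-Aa and H2-DMb2. H2-DMa was the member least like the rest, with r of 0.708 with the mean standardised level of the 10 genes, and H2-DMb1 had 0.746. H2-Ob had 0.841. The points share 4 groups of 3 samples, so these values largely describe how the groups are ordered. The tested genes outside all lists whose pattern was most like that mean were Scml4 (r = 0.971), Mllt6 (0.963), Sidt1 (0.960), Gimap6 (0.957) and Bank1 (0.944), over 12 samples. Bank1, a B cell scaffold protein, was at 6.95, 8.34 and 7.60 FPKM in Aged-TBI, 9.91, 7.88 and 8.79 FPKM in Aged-CON, 4.83, 6.34 and 3.95 FPKM in Young-TBI, and 10.5, 13.5 and 14.7 FPKM in Young-CON.

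Genes for the proteins that bind the class II promoters were not called where the class II genes were. Of 7 such genes (Rfx5, Rfxank, Rfxap, Nfya, Nfyb, Nfyc and Creb1), none was called in any comparison. Rfx5, the DNA-binding subunit of RFX, averaged 6.75 ± 0.73 FPKM in Young-TBI and 8.14 ± 1.48 FPKM in Young-CON (SD, n = 3 each), a log2 change of -0.23 (limma adjusted p = 0.346). Nfya, a subunit of NF-Y, changed by -0.18 in young injured mice (adjusted p = 0.086). The list's median change there was -0.10, beside -1.11 for the members. Among 8 genes of the interferon gamma route, which induces Ciita in many cells, Ifng itself was below the filter. None was called in young injured mice. In aged injured mice Irf1, a transcription factor of that route, was called lower (log2 change -0.67, adjusted p = 0.0449). Its call held in 11 of 25 alternative settings and was lost, among others, without Aged-CON 2 or any 1 of the Aged-TBI samples. Socs1, the feedback inhibitor of the route, was lower in Aged-TBI than in Young-TBI (log2 change -0.67, adjusted p = 0.0159), a call lost without Young-TBI 3 or any 1 of the Aged-TBI samples and with the erythroid covariate.

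The proteases and reductase that prepare peptide and trim Cd74 were not called lower in young injured mice. Of 7 such genes 1 was called higher, Ifi30, the lysosomal thiol reductase, which rose by 0.42 (limma adjusted p = 0.0186, with 5.15% of tested genes called in either direction). Ifi30 was at 181, 164 and 197 FPKM in Young-TBI and 148, 134 and 122 FPKM in Young-CON. Its call was lost without Young-CON 2 or 3 and without Young-TBI 1 or 3. Ctss, the cathepsin that makes the last cut in Cd74 in B cells and dendritic cells, changed by 0.15 (adjusted p = 0.465), and Lgmn, an endosomal protease, by -0.20 (adjusted p = 0.359). Between the injured groups Ctss fell by 0.43 (adjusted p = 0.0271) and Ifi30 fell by 0.35 (adjusted p = 0.0286) in Aged-TBI relative to Young-TBI, with 6.93% of tested genes called lower. H2-DMb2 was higher there. Both calls were lost without Young-TBI 1 or 3, without Aged-TBI 1 or 3 and with the erythroid covariate.

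Of 5 genes listed under costimulation, which accompanies class II in contacts with T cells, 3 were called lower in young injured mice. Of all tested genes 3.15% were called lower there. Cd40 fell by 0.66 (limma adjusted p = 0.0268), Cd83, which stabilises class II and Cd86 on the surface, fell by 0.65 (adjusted p = 0.0267), and Icosl fell by 0.51 (adjusted p = 0.0457). Each of these calls was lost when Young-CON 2 or 3, or Young-TBI 1 or 3, was left out. That of Cd40 held in 19 of 25 alternative settings. That of Cd83 held in 17 of 24 and was lost without any 1 of the 6 young samples. That of Icosl held in 11 of 25 and was also lost without any 1 of the Aged-TBI samples, under quantile normalization and after rescaling without dominant genes. Cd80 and Cd86 were not called, with changes of 0.06 (adjusted p = 0.897) and 0.09 (adjusted p = 0.754). None of the 5 was called in aged injured mice. Cd40 was lower in Aged-CON than in Young-CON (log2 change -0.57, adjusted p = 0.0496), a call that held in 7 of 25 alternative settings. Cd86 was lower in Aged-TBI than in Young-TBI (-0.67, adjusted p = 0.00821), a call that held in 24 of 25 alternative settings and was lost with the erythroid covariate (adjusted p = 0.139).

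Markers of B cells and of T cells moved with the class II genes in young injured mice. Of 12 mature B cell genes 11 were called lower, with a median change of -1.19, against 3.15% of all tested genes called lower. Ms4a1 fell by 1.29 (limma adjusted p = 0.00293), Cd79a by 1.39 (0.00293) and Cd79b by 1.09 (0.00386). These 12 genes summed to 396 to 529 FPKM in Young-TBI and 738 to 982 FPKM in Young-CON, and none was at 0 throughout a group. Of 9 B cell progenitor genes 6 were called lower, and that list summed to 65.7 to 79.6 FPKM in Young-TBI and 121 to 178 FPKM in Young-CON. Of 6 T cell genes 5 were called lower, with a median change of -0.74. They summed to 22.0 to 30.5 FPKM in Young-TBI and 42.7 to 46.2 FPKM in Young-CON. Of the other class II cells, none of 9 macrophage genes, none of 6 plasmacytoid dendritic cell genes and 1 of 8 tested conventional dendritic cell genes were called lower, and of 8 monocyte genes 2 were called lower and 2 higher. All 6 plasmacytoid genes had lower means in injured mice, and their sums ran from 129.5 to 134 FPKM in Young-TBI and from 147 to 183 FPKM in Young-CON. The monocyte list summed to 1378 to 1589 FPKM in Young-TBI and 1078 to 1261 FPKM in Young-CON. Most of this sum was Ly6c2, which averaged 1239 FPKM in Young-TBI and 925 FPKM in Young-CON. By mean log2 level, 3 of the 8 monocyte genes were lower in injured mice and 5 higher. The macrophage list summed to 138 to 167 FPKM in Young-TBI and 151 to 249 FPKM in Young-CON. Of its 9 genes 8 had lower mean log2 levels in injured mice and 1 higher. The median change was -0.43, and 3 genes were lower at an unadjusted limma p under 0.05, against 1343 of all 11767 tested genes. Injured and control samples overlapped for each of the 9. The conventional dendritic cell list summed to 113 to 124 FPKM in Young-TBI and 131 to 147 FPKM in Young-CON. Most of this sum was Irf8, named after its values were seen, which averaged 88.7 FPKM in Young-TBI and 101.5 FPKM in Young-CON. Of the 8 tested conventional dendritic cell genes 7 had lower mean log2 levels in injured mice and 1 higher. The median change was -0.26, and 4 genes had all injured samples below all controls, against 15.0% of all tested genes. At an unadjusted limma p under 0.05, 5 of the 8 were lower, against 1343 of all 11767 tested genes. In aged injured mice none of the 12 mature B cell genes was called, with a median change of -0.34, and they summed to 271 to 281 FPKM in Aged-TBI and 325 to 375 FPKM in Aged-CON. The part of each cell type in the class II results was not tested.

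With age the B cell lists and the class II genes parted. Between Aged-CON and Young-CON 9 of the 12 mature B cell genes and all 9 progenitor genes were called lower, against 4.19% of all tested genes. Their median changes were -1.55 and -2.07, while the median of the class II genes was -0.18. The T cell list had a median of -0.24 and the macrophage list of -0.32. Medians were -0.13 for the conventional dendritic cell list, -0.61 for the plasmacytoid list and 0.07 for the monocyte list. Of the B cell genes, Cd79a fell by 1.87 (limma adjusted p = 5.91e-05). The mature B cell list summed to 325 to 375 FPKM in Aged-CON and 738 to 982 FPKM in Young-CON. The 10 class II genes summed to 904 to 1074 FPKM in Aged-CON and 875 to 1279.8 FPKM in Young-CON. The mean log2 level of the class II genes exceeded that of the mature B cell list by 1.26 (lowest 1.16, highest 1.33) in Aged-TBI, 1.34 (1.28 to 1.44) in Aged-CON, 0.42 (0.31 to 0.55) in Young-TBI and 0.23 (0.17 to 0.33) in Young-CON. The aged and young samples did not overlap on this measure, which was chosen with earlier results known and was not tested. H2-Ob followed the B cell list most closely of the members, with r of 0.950 over the 12 samples, whereas H2-Aa had 0.451 and H2-DMb1 0.359.

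**Figure D4:**
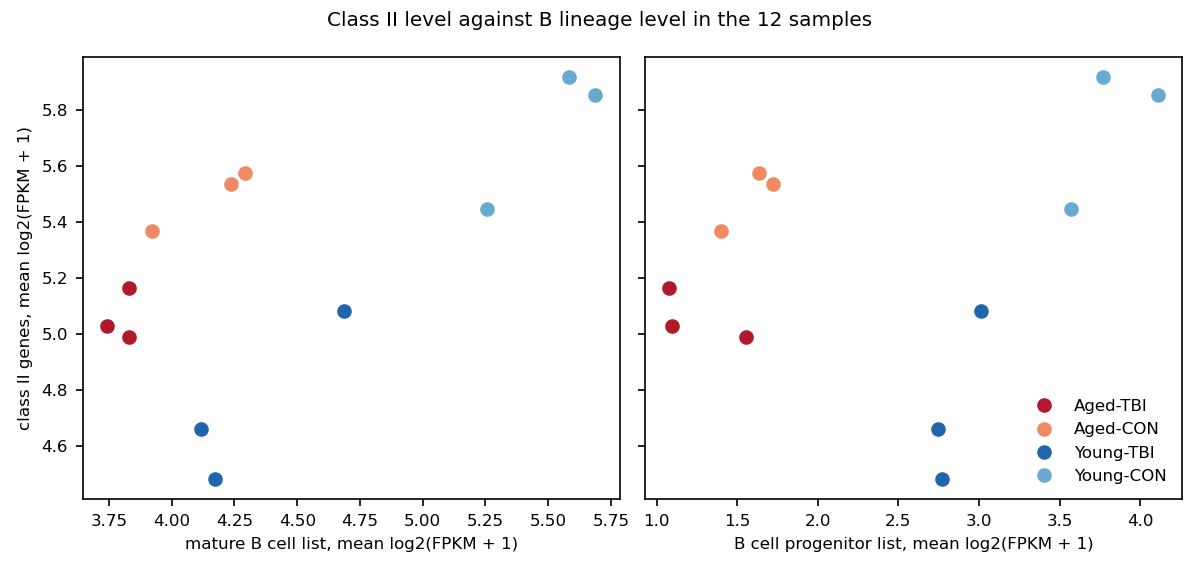
Mean log2(FPKM + 1) of the 10 class II genes (vertical axis) against that of 12 mature B cell genes (left) and 9 B cell progenitor genes (right), 1 point per sample, coloured by group; axes do not start at 0. The aged controls lie far to the left of the young controls at overlapping class II height, and Young-TBI overlaps Aged-CON on the left-hand B cell axis at a lower class II height.

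The mature B cell list was not uniform in the injured mice of different age. Between Aged-TBI and Young-TBI 8 of its 12 genes were called lower and 2 higher, against 6.93% and 2.97% of all tested genes. Cd79b fell by 1.12 (limma adjusted p = 0.0019). The 2 higher ones, named here after their values were seen, were Fcer2a, the low-affinity IgE receptor CD23, and Cr2, complement receptor CD21, both known from mature recirculating B cells. Fcer2a was at 10.4, 8.50 and 8.57 FPKM in Aged-TBI, 11.6, 7.56 and 11.4 FPKM in Aged-CON, 3.29, 7.16 and 2.24 FPKM in Young-TBI, and 13.2, 15.2 and 16.6 FPKM in Young-CON. This is the group order of Cd74 and Ciita, with Young-TBI lowest. Fcer2a rose by 1.07 (adjusted p = 0.0326) and Cr2 rose by 0.75 (adjusted p = 0.0293) in Aged-TBI relative to Young-TBI. Both calls were lost without Young-TBI 1 or 3, without any 1 of the Aged-TBI samples and with the erythroid covariate. With that covariate 3 of the 12 genes of the list were called in either direction. Of all tested genes 0.765% were then called lower and 0.416% higher.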

How the data were processed

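RNA of 12 bone marrow samples was sequenced, and the authors deposited FPKM per gene symbol. The labels' protocols name TRIzol for extraction and a SMARTER mRNA-Seq kit for the libraries. Per the submitters' processing notes, GRCm38, mm10 and R 4.3.3 were used. Aligner, counting tool, annotation and strand use were not given in the sources at hand. FPKM is relative, so a rise of abundant genes lowers other values.

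Genes that reached 1 FPKM in 3 or more samples were tested with limma 3.58.1 in R 4.3.3 on log2(FPKM + 1). The model had 1 mean per group over all 12 samples and a variance trend, two-sided p-values were Benjamini-Hochberg adjusted over 11767 genes. The procedure was tested on simulated data. The members and lists were chosen with earlier results of these data known. All 10 members are named, with the called genes of the pathway lists and up to 3 others, up to 4 genes per marker list in list order, and the 5 genes most like the members; some genes these rules would name are not reported here. The H2-O to H2-DM balance was compared by exact permutation over samples. The labels did not say whether replicate numbers pair the samples, and the main model did not use them. Correlations of same-numbered samples, as deviations from their group means, ran from -0.117 to 0.29. The highest, 0.29 and 0.235, were between the controls of both ages numbered 1 and 2. With 3 samples per group these values cannot settle whether the numbers mark a shared batch. Alternatives covered scaling, filter, pseudocount, covariate, weights, a block on replicate number and each sample left out.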

Additional observations from a re-analysis of the deposited data

How the results depend on the processing

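Over the 10 members, 5 comparisons and all alternatives, 1178 log2 changes kept their direction and side of the threshold, 33 gained and 16 lost the threshold, and 13 changed sign. In young injured mice 8 members were called under every alternative that kept all 12 samples in the model; 7 were called with only the 2 groups compared, and 6 to 9 with each sample left out. In aged injured mice 0 members were called, but 4 with weights per sample, when 14.7% of all tested genes were called lower. With each sample left out 0 to 1 were called, the 1 without Aged-CON 1, when 12.9% of all tested genes were called lower. Without both Young-CON 2 and Aged-CON 1, 2 were called, when 14.1% of all tested genes were called lower. For age without injury 1 was called, and 0 to 1 with each sample left out. With weights per sample 2 were called lower, when 14.1% of all tested genes were. For age after injury 1 was called, but 0 with no filter on low values and 0 with the erythroid covariate. With only the 2 groups compared 2 were called, H2-DMb2 higher and H2-DMa lower. The same 2 were called without both controls, when 8.45% of all tested genes were called higher and 13.6% lower. With weights per sample 5 were called, H2-DMa lower and the others higher, when 8.16% of all tested genes were called higher and 15.1% lower. With each sample left out 0 to 6 were called, the 6 without Young-TBI 2, when 1.82% of all tested genes were called higher. For the interaction 0 were called, but 5 with weights per sample, when 13.3% of all tested genes were called positive. With each sample left out 0 to 3 were called, the 3 without Aged-CON 1, when 9.12% of all tested genes were called positive. Without both controls 3 were called, when 13.7% of all tested genes were called positive. Apart from smaller models, the cause was not tested.

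Signs changed for values near 0. For age without injury H2-Aa was -0.0047 with quantile normalization, -0.0086 with weights and -0.13 to 0.19 with each sample left out. H2-Ab1 ran from -0.24 to 0.0355, H2-DMb1 from -0.0347 to 0.30 and H2-Eb1 from -0.28 to 0.0776 with each sample left out, and H2-Eb1 was 0.0455 without both controls. For age after injury H2-Ob was 0.0142 with quantile normalization and -0.17 to 0.20 with each sample left out. H2-DMb1 had 0.21 there, and 0.0843 in the interaction, with the erythroid covariate.

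With a replicate block 8 members were called in young injured mice, all of them among the 8 called without it. Of all tested genes 310 were called lower with that block. The labels did not say what the numbers stand for, and the block took the interaction calls over all genes from 23 to 0. With limma-voom on the recovered fragments, which came out whole for 99.97% of tested genes, 652 genes were called in young injured mice against 606, and 8 members. Over all alternatives the calls across all genes ran from 160 to 1595 (young injury), 10 to 3557 (aged injury, 38 as reported), 279 to 2731 (age without injury, 586 as reported), 139 to 2740 (age after injury, 1165 as reported) and 0 to 3045 (interaction). The voom model and the removal of both controls were chosen after seeing the data. H2-Oa rested on 37 to 138 fragments per sample, which limits its precision.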

Other observations

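H2-Eb2, a second beta chain gene of the class II region that was not among the members, was named after its values were seen. It was at 1.76, 2.28 and 1.42 FPKM in Aged-TBI, 2.29, 1.78 and 2.31 FPKM in Aged-CON, 0.468, 0.672 and 0.359 FPKM in Young-TBI, and 2.21, 2.76 and 1.85 FPKM in Young-CON. Young-TBI was below the other 3 groups, which overlapped. By limma H2-Eb2 fell by 1.12 in young injured mice (adjusted p = 0.00386) and changed by -0.16 in aged injured mice (adjusted p = 0.551). It rose by 0.90 in Aged-TBI relative to Young-TBI (adjusted p = 0.00555), a call lost with the erythroid covariate (adjusted p = 0.0628). Its interaction was 0.97 (adjusted p = 0.0776).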
